A study of Rattus norvegicus with 6 samples.

Results

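Potassium channel genes were taken as the rat genes whose symbol begins with Kcn and closes with a number, which covers pore-forming and accessory subunits, less Kcnq1, Kcne1 and Kcnj10, which were set aside. This rule used names alone and gave 88 of the 32883 genes in the table. Gene expression was measured by bulk RNA-seq in the vestibular sensory epithelium of 6 male adult Long-Evans rats. The 3 rats of the IDPN-4wk group drank water containing 20 mM 3,3'-iminodipropionitrile (IDPN), a nitrile that damages vestibular hair cells (HCs), during 4 weeks, and the 3 control rats drank water without it. Each library held the pooled 2 utricles and 6 cristae of a single animal, so it contained HCs, supporting cells, nerve terminals and the tissue beneath them. The labels name no allele or other agent in either group. The comparison asks how the potassium channel repertoire of this epithelium stood at the end of a sustained ototoxic exposure.

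Potassium channels let K+ leave or enter a cell along its electrochemical gradient and thereby set the resting potential and the speed with which a voltage change decays. In vestibular HCs, K+ enters through the transduction channels at the stereocilia and leaves through basolateral channels, and type I HCs carry a large low-voltage-activated K+ conductance that faces the calyx terminal of the afferent neuron. Voltage-gated (Kv) subunits assemble as tetramers with cytosolic or membrane-spanning accessory subunits, inward rectifiers and two-pore channels hold the resting potential, and calcium-activated channels couple K+ efflux to calcium entry.

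Total counts per library were between 14610151 and 16032133 in controls and between 13358678 and 18561991 in IDPN-4wk, and values below are CPM, counts relative to the scaled size of each library, on which 3 counts were worth 0.155 to 0.216. Within-group correlations of the libraries across genes were 0.980 to 0.983 and between-group ones 0.953 to 0.966. HCs define the labelled tissue, and all 16 of their markers passed the filter on low counts. Of these markers 7 were downregulated and none upregulated, with a summed level of 3898 to 4038 CPM in controls and 2468 to 2956 in IDPN-4wk. Since the tissue was sequenced whole, fewer cells of a type and less RNA per cell of that type cannot be told apart.

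Of the 88 genes, 51 passed the filter and were tested. A gene was called downregulated or upregulated when its adjusted p (Padj, edgeR quasi-likelihood test, Benjamini-Hochberg over all 14352 genes tested) was under 0.05 and its fold change over 1.5. Downregulated in IDPN-4wk were 16 of the 51 (31.4%), beside 6.62% of all genes tested, and upregulated were 2 (3.92%), beside 3.09%. Of the 16, 14 fell over 2-fold and 5 over 4-fold, and in all 18 called genes the control and treated libraries were apart. The 3 control and 3 treated libraries did not overlap, with the treated lower, for 22 of the 51 genes (43.1%), against 19.3% of all genes, and with the treated higher for 2 (3.92%), against 18.5%. The median log2-Fold change was -0.50 over the 51 genes (quartiles -1.12 and 0.06) and 0.02 over all genes (quartiles -0.21 and 0.22), and 70.6% of the channel genes had a negative value against 47.2% of all genes. Summed over the 88 genes, the level was 1352 ± 79.1 CPM in controls and 807 ± 99.9 CPM in IDPN-4wk (SD, n = 3), or 59.7% of control.

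**Figure D1:**
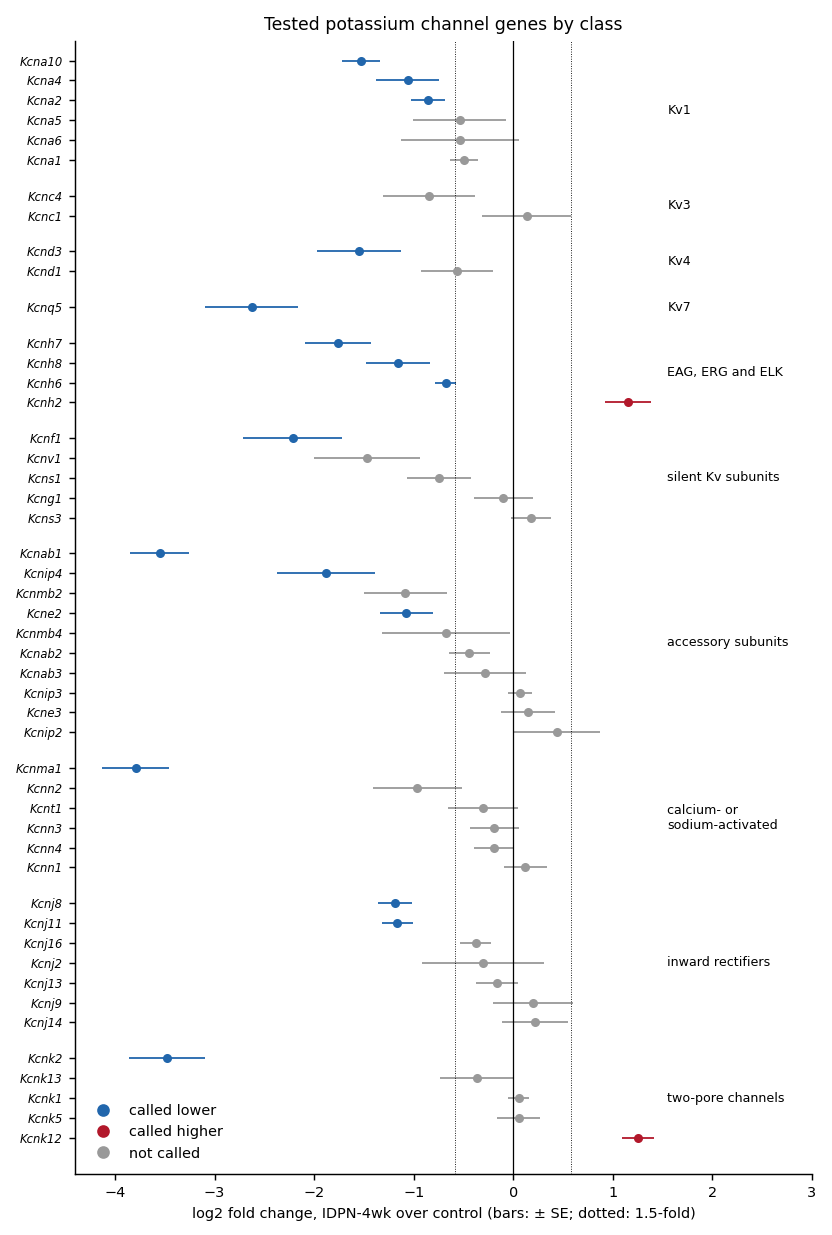
Log2-Fold change of 48 of the 51 tested potassium channel genes, IDPN-4wk over control (x axis, log2 scale), arranged by class, with bars for the standard error and dotted lines at the 1.5-fold threshold. Downregulated genes (16, blue) occur in 9 of the 10 classes shown, and the 2 upregulated genes (red) are Kcnh2 and Kcnk12.

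Among the called genes, those with the lowest share of the control level left were an accessory subunit, a calcium-activated channel and a two-pore channel. Kcnab1 (ENSRNOG00000056697), which encodes the cytosolic Kv beta 1 subunit that binds Kv1 channels and speeds their inactivation, stood at 70.8, 86.5 and 71.8 CPM in the controls and at 3.74, 4.59 and 11.2 CPM in IDPN-4wk. The highest treated library was well under the lowest control. Its log2-Fold change was -3.55 (SE 0.29, edgeR Padj 3.66e-05), which left 8.53% of the control level, and without IDPN-4wk replicate 3, the highest of the treated libraries, it was -4.19. Kcnma1 (ENSRNOG00000005985), which encodes the pore of the BK channel, opened by calcium and depolarization together, stood at 5.68, 7.62 and 6.87 CPM in the controls and at 0.575, 0.309 and 0.579 CPM in IDPN-4wk. The treated values rest on 8, 6 and 9 counts. Its log2-Fold change was -3.79 (SE 0.33, edgeR Padj 4.75e-05), with 7.26% of the control level left. Kcnk2 (ENSRNOG00000002653), which encodes TREK-1, a two-pore leak channel opened by stretch, heat and lipids, stood at 74.6, 28.1 and 33.8 CPM in the controls and at 2.88, 3.61 and 5.73 CPM in IDPN-4wk. Control replicate 1 was far above the other two controls, but the groups remained apart by a wide margin. The log2-Fold change of Kcnk2 was -3.48 (SE 0.38, edgeR Padj 0.000159) with all libraries and -2.92 without control replicate 1. On the GRCr8 gene table, Kcnk2 overlaps a coding gene with only a LOC symbol, and their reads were not separated by strand.

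Kv1 subunits, which form low-threshold and A-type channels, had 3 of 6 tested genes downregulated and none upregulated. Kcna10 (ENSRNOG00000050416), which encodes Kv1.8, a subunit of the outward K+ conductances of vestibular HCs, stood at 305, 334 and 303 CPM in the controls and at 89.9, 82.4 and 154 CPM in IDPN-4wk. Its treated libraries all lay under the lowest control, with replicate 3 the least reduced. The log2-Fold change was -1.53 (SE 0.19, edgeR Padj 0.000366), with 34.6% of the control level left. Kcna2 (ENSRNOG00000018285), which encodes Kv1.2, a subunit of axonal low-threshold channels, stood at 83.2, 80.7 and 91.2 CPM in the controls and at 48.6, 32.7 and 60.3 CPM in IDPN-4wk. The groups did not overlap and its log2-Fold change was -0.85 (SE 0.17, edgeR Padj 0.00622). Kcna4 (ENSRNOG00000004918), which encodes the rapidly inactivating Kv1.4, stood at 4.78, 5.38 and 3.68 CPM in the controls and at 2.88, 1.44 and 2.38 CPM in IDPN-4wk. The call, at -1.06 (log2, SE 0.31, edgeR Padj 0.0376), was lost when control replicate 1 or 2 or IDPN-4wk replicate 2 or 3 was left out, with a Padj of up to 0.125.

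Kcna1, which encodes Kv1.1, the usual partner of Kv1.2 in myelinated axons, was the only tested channel gene with a Padj under 0.05 that missed the fold threshold. It stood at 136, 101 and 108 CPM in the controls and at 79.3, 66.7 and 98.4 CPM in IDPN-4wk (log2-Fold change -0.50, SE 0.14, edgeR Padj 0.0344). Its groups did not overlap, although the highest treated library came close to the lowest control, and without IDPN-4wk replicate 3 it passed both thresholds. Its Padj was over 0.05 without control replicate 1 or 3 or IDPN-4wk replicate 1 or 2, at up to 0.118. The other two tested Kv1 genes, Kcna5 and Kcna6, overlapped between groups, with log2-Fold changes of -0.54 each. Kcna3, next to Kcna2 on the GRCr8 gene table, had 4, 6 and 7 counts in the controls and 0, 0 and 3 in IDPN-4wk and was not tested. Summed over the 8 Kv1 genes, the level was 522 ± 11.1 CPM in controls and 242 ± 68.7 CPM in IDPN-4wk (SD, n = 3), or 46.4%. Most of this difference lay in Kcna10, with means of 314 and 109 CPM. Nerve fibres are another known site of Kv1 subunits, and 2 of 9 tested neuronal markers were lower and 3 higher in IDPN-4wk by the same thresholds (summed level 116 to 123 CPM in controls, 91.1 to 94.7 in IDPN-4wk), while of the 9 Schwann cell markers 2 were downregulated (7762 to 9916 CPM against 5364 to 8046). The part of either in the Kv1 values was not tested.

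The stretch of genome just upstream of the annotated start is shown for Kcna10 and for Kcnab1, a Kv1 pore and a Kv1 beta subunit that were both downregulated and both lie on chromosome 2. The sequences are from RefSeq on build GRCr8, plus strand, 5' to 3'. Capitals mark CAGCTG, an E-box hexamer of the kind bound by basic helix-loop-helix factors, which reads the same on both strands. The Kcna10 window is chr2:197474464-197474713 and the Kcnab1 window is chr2:151614301-151614550.
Kcna10: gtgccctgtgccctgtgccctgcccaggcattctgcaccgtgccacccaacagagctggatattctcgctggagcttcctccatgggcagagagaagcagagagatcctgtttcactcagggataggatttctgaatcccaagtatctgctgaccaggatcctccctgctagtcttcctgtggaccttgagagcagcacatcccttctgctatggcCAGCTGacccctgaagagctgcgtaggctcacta
Kcnab1: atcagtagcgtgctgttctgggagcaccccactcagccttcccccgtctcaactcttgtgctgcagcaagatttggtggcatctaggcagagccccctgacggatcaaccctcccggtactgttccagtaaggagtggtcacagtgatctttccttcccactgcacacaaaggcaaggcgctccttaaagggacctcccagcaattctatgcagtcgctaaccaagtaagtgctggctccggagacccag
The Kcna10 window held the hexamer once, beginning 34 bases before the gene start, and the Kcnab1 window did not hold it. The GC content was 56.4% and 56.0%, and CG dinucleotides numbered 3 and 7. Promoter windows were at hand for 36 of the tested channel genes. CAGCTG was in 9 of their 39 windows (23.1%), in 3 of the 14 windows of downregulated genes (21.4%, those of Kcna10, Kcnf1 and Kcnq5) and in 12.0% of the 33469 windows of all genes. The homeodomain core TAATTA, also the same on both strands, was in 1 of the 39 windows, in 0 of the 14 and in 4.86% of all. These are matches of letters in a window and nothing about binding was measured.

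**Figure D2:**
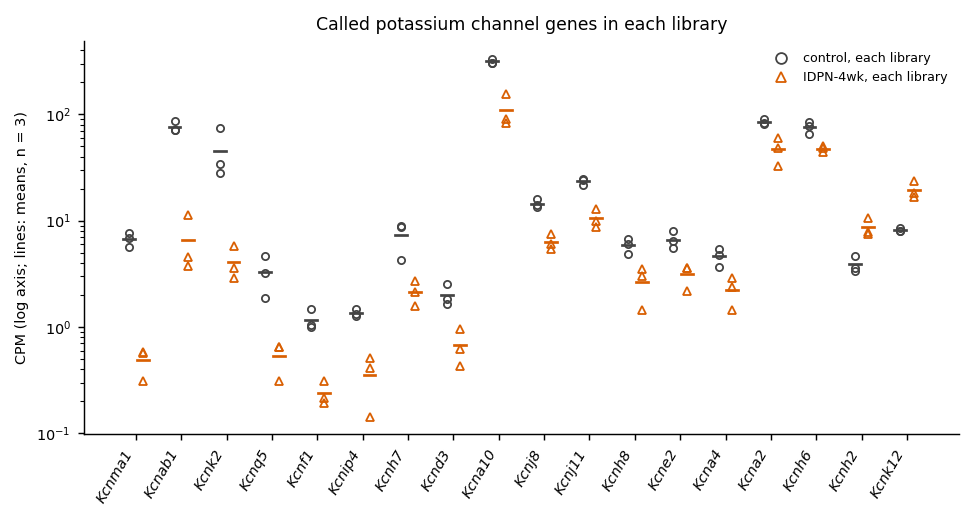
CPM (y axis, log scale) of the 18 called potassium channel genes in each control (circles) and IDPN-4wk (triangles) library, with lines at the group means (n = 3). No gene has overlapping groups, and the gap is widest for Kcnma1, Kcnab1 and Kcnk2, where 7.26% to 8.95% of the control mean was left.

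In the EAG, ERG and ELK class of voltage-gated channels, all 4 tested genes were called, 3 downregulated and 1 upregulated. Kcnh6 (ENSRNOG00000008078), which encodes Erg2, stood at 78.1, 84.3 and 65.8 CPM in the controls and at 43.9, 47.9 and 50.5 CPM in IDPN-4wk. This was a moderate change with closely grouped treated libraries. The log2-Fold change was -0.68 (SE 0.10, edgeR Padj 0.00119) and became -0.57, under the fold threshold, when libraries were scaled by their total alone. Kcnh7 (ENSRNOG00000007528), which encodes Erg3, stood at 4.26, 8.95 and 8.71 CPM in the controls and at 1.58, 2.68 and 2.12 CPM in IDPN-4wk. Control replicate 1 was the lowest control and still above every treated library. The log2-Fold change of Kcnh7 was -1.76 (SE 0.33, edgeR Padj 0.0044). Kcnh7 overlaps Gca, which encodes the calcium-binding protein grancalcin, on the GRCr8 gene table, and Gca stood at 40.7 to 46.3 CPM in controls and 44.0 to 50.1 CPM in IDPN-4wk (log2-Fold change 0.14, edgeR Padj 0.310).

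Kcnh8 (ENSRNOG00000058626), which encodes the ELK channel Kv12.1, stood at 6.65, 6.01 and 4.88 CPM in the controls and at 3.02, 1.44 and 3.48 CPM in IDPN-4wk. The call, at -1.16 (log2, SE 0.32, edgeR Padj 0.0296), was lost without control replicate 1 or 2 or IDPN-4wk replicate 1 or 2, with a Padj of up to 0.0881. Kcnh2 (ENSRNOG00000009872) moved the other way from its ERG relatives. It encodes Erg1, the channel of the rapid delayed rectifier that repolarizes the heart, and it stood at 3.62, 4.68 and 3.33 CPM in the controls and at 7.55, 7.74 and 10.7 CPM in IDPN-4wk. Every treated library exceeded every control, and the log2-Fold change was 1.16 (SE 0.23, edgeR Padj 0.0058), a 2.23-fold higher level. The 4 untested genes of the class were Kcnh1, Kcnh3, Kcnh4 and Kcnh5, with at most 8 counts in any library.

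Among Kv7 channels, which give slow, non-inactivating currents, 1 gene was called. Kcnq5 (ENSRNOG00000013781), which encodes Kv7.5, stood at 3.23, 1.89 and 4.67 CPM in the controls and at 0.647, 0.309 and 0.644 CPM in IDPN-4wk. These correspond to 50, 27 and 66 counts in the controls and to 9, 6 and 10 in the treated libraries, with no overlap. The log2-Fold change was -2.63 (SE 0.47, edgeR Padj 0.0031), with 16.4% of the control level left. Kcnq3 had 6, 9 and 12 counts in the controls and 5, 0 and 7 in IDPN-4wk and was not tested.

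The Kv4 channels carry transient A-type currents and assemble with KChIP proteins and with the single-span peptidase-like proteins DPP6 and DPP10. Kcnd3 (ENSRNOG00000014686), which encodes Kv4.3, stood at 2.52, 1.82 and 1.63 CPM in the controls and at 0.431, 0.619 and 0.966 CPM in IDPN-4wk. The treated libraries were all lower (log2-Fold change -1.55, SE 0.42, edgeR Padj 0.0258). Kcnip4 (ENSRNOG00000032350), which encodes the calcium sensor KChIP4, stood at 1.49, 1.33 and 1.27 CPM in the controls and at 0.144, 0.413 and 0.515 CPM in IDPN-4wk, from 23, 19 and 18 against 2, 8 and 8 counts. For Kcnip4 the log2-Fold change was -1.88 (SE 0.49, edgeR Padj 0.0218). The groups of both genes were apart, but each call was lost without any 1 of the controls or of IDPN-4wk replicates 1 and 2, with a Padj of up to 0.105 for Kcnd3 and 0.0792 for Kcnip4. Kcnd1, which encodes Kv4.1, overlapped between groups at -0.56 (log2, SE 0.37, edgeR Padj 0.313), like the KChIP genes Kcnip2 (0.44) and Kcnip3 (0.07).

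The Kv4 partners outside the Kcn names also fell. Dpp6 stood at 41.5, 39.0 and 34.4 CPM in the controls and at 5.82, 7.53 and 8.50 CPM in IDPN-4wk (log2-Fold change -2.39, SE 0.15, edgeR Padj 8.48e-06), and the call held in every alternative fit. Dpp10 had 15, 32 and 19 counts in the controls and 0, 0 and 1 in IDPN-4wk (edgeR Padj 0.00105). On the list of BK, Kv and ATP-sensitive channel partners, 5 of 16 tested genes fell and 1 rose, beside 6.62% and 3.09% of all genes, and the list's median was -0.36 (log2).

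**Figure D3:**
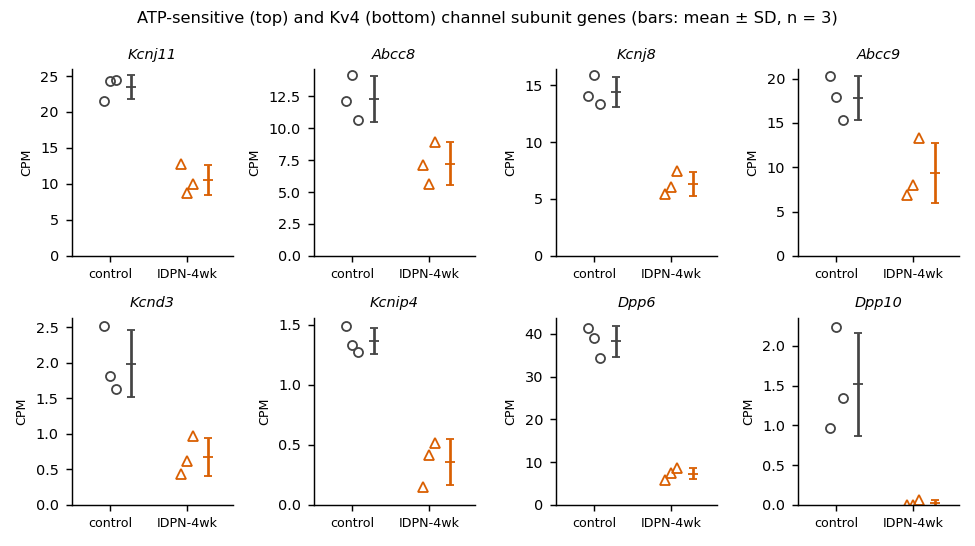
CPM (y axis of each panel, starting at 0) of 8 genes whose products assemble, ATP-sensitive channels in the top row and Kv4 channels in the bottom row, in 3 control (circles) and 3 IDPN-4wk (triangles) libraries with mean ± SD bars. All 8 genes have treated libraries under the lowest control, with 0, 0 and 1 counts left for Dpp10.

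Inward rectifiers pass K+ more readily into than out of the cell. Kcnj11 (ENSRNOG00000021128), which encodes Kir6.2, the pore of the ATP-sensitive channel of neurons and endocrine cells, stood at 21.6, 24.3 and 24.5 CPM in the controls and at 12.8, 8.77 and 9.98 CPM in IDPN-4wk. With separate groups, the log2-Fold change was -1.16 (SE 0.15, edgeR Padj 0.00054). Kcnj8 (ENSRNOG00000013463), which encodes Kir6.1, the pore found in vascular muscle and pericytes, stood at 14.1, 15.9 and 13.3 CPM in the controls and at 5.46, 6.04 and 7.47 CPM in IDPN-4wk. For Kcnj8 the log2-Fold change was -1.19 (SE 0.17, edgeR Padj 0.000951). Both pores kept under 50% of the control level, with separate groups, and both calls held in every alternative fit.

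The sulfonylurea receptors that complete these channels are encoded by the neighbouring genes, Abcc8 beside Kcnj11 and Abcc9 beside Kcnj8 on the GRCr8 gene table. Abcc8 stood at 12.1, 14.2 and 10.6 CPM in the controls and at 7.12, 5.62 and 8.95 CPM in IDPN-4wk (log2-Fold change -0.77, SE 0.20, edgeR Padj 0.0231). Abcc9 stood at 20.3, 18.0 and 15.3 CPM in the controls and at 6.83, 7.94 and 13.3 CPM in IDPN-4wk (log2-Fold change -0.93, SE 0.23, edgeR Padj 0.0166). Both receptor genes thus accompanied their pores, with wider spread. The call of Abcc8 was lost without control replicate 1 or 2 or IDPN-4wk replicate 1 or 2 (Padj up to 0.0898), and that of Abcc9 without control replicate 1 or IDPN-4wk replicate 1 or 2 (Padj up to 0.0656). Of the 8 markers of pericytes and vascular smooth muscle, which include Abcc9, 2 were downregulated and none upregulated, and their summed level was 249 to 288 CPM in controls and 241 to 276 in IDPN-4wk.

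The remaining tested inward rectifiers were not called. Kcnj16, which encodes Kir5.1, a subunit that assembles with the product of the set-aside gene Kcnj10, stood at 319, 463 and 363 CPM in the controls and at 359, 240 and 283 CPM in IDPN-4wk. The groups overlapped (log2-Fold change -0.38, SE 0.15, edgeR Padj 0.116). Kcnj2, which encodes Kir2.1, had 3 to 18 counts in a library and no detectable change (log2-Fold change -0.31, SE 0.61, edgeR Padj 0.766), and Kcnj13, Kcnj9 and Kcnj14 lay between -0.16 and 0.22. The set-aside genes, 2 of which form the secretory channel of dark cells, had log2-Fold changes of -1.87 for Kcnq1 (edgeR Padj 3.73e-05, downregulated), -0.66 for Kcne1 (Padj 0.114) and -0.43 for Kcnj10 (Padj 0.0200, under the fold threshold), and of the 7 dark cell markers, which include Kcnq1 and Kcne1, 3 were downregulated, Kcnq1, Slc12a2 and Atp1b2 (1513 to 1953 CPM in controls, 988 to 1205 in IDPN-4wk).

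Two-pore channels give the background leak of K+. Beside Kcnk2, the gene Kcnk12 was called, in the other direction. Kcnk12 (ENSRNOG00000016110), which encodes THIK-2, a subunit with little current when expressed alone, stood at 8.46, 8.04 and 8.07 CPM in the controls and at 18.1, 16.8 and 23.8 CPM in IDPN-4wk. The controls lay very close together and each treated library exceeded them all. The change was 1.25 on the log2 scale (SE 0.16, edgeR Padj 0.000442), a 2.39-fold higher level, and the call held in every alternative fit. Its relative Kcnk13, which encodes THIK-1, a channel of macrophages and microglia, overlapped between groups (log2-Fold change -0.37, SE 0.37, edgeR Padj 0.533). Kcnk1 and Kcnk5, which encode TWIK-1 and TASK-2, overlapped too, with log2-Fold changes of 0.05 each. Of the 9 macrophage markers 1 was upregulated and none downregulated (107 to 142 CPM in controls, 90.7 to 177 in IDPN-4wk). Among the 4 red blood cell markers 1 was upregulated (148 to 176 CPM against 169 to 351). Among the 3 tested skeletal muscle markers 1 was upregulated, Myh4, and 1 downregulated, Pvalb (list sum 41.9 to 44.3 CPM against 58.5 to 96.6). Mean Myh4 went from 7.93 to 58.1 CPM, while Pvalb went from 23.7 to 10.7 and Tnnc2 from 10.9 to 8.39. Ckm and Tnni2 were at 0 in every library. The part of these in the values of Kcnk12 and Kcnh2 was not tested.

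The calcium- and sodium-activated class had 1 called gene of 6 tested, Kcnma1, and the BK channel's membrane partners were measured beside it. Kcnmb2, which encodes the beta 2 subunit that inactivates BK, stood at 1.10, 1.96 and 1.63 CPM in the controls and at 0.503, 0.825 and 0.837 CPM in IDPN-4wk. Its groups did not overlap but it was not called (log2-Fold change -1.09, SE 0.42, edgeR Padj 0.0951), and Kcnmb4, which encodes the neuronal beta 4 subunit, overlapped between groups (log2-Fold change -0.67, SE 0.64, edgeR Padj 0.505, and -1.36 without IDPN-4wk replicate 3). Lrrc38, which encodes a gamma subunit of BK, stood at 2.07, 2.45 and 0.920 CPM in the controls and at 0.144, 0.206 and 0.837 CPM in IDPN-4wk. The log2-Fold change of Lrrc38 was -2.19 (SE 0.63, edgeR Padj 0.0330), was -3.30 without IDPN-4wk replicate 3 and lost the call without control replicate 1 or 2 or IDPN-4wk replicate 1 or 2 (Padj up to 0.120). Lingo1, which encodes a neuronal leucine-rich repeat protein, was the upregulated partner, with 1, 3 and 5 counts in the controls and 18, 19 and 11 in IDPN-4wk (edgeR Padj 0.0273), a call that DESeq2 and the fits without control replicate 1 or 2 or IDPN-4wk replicate 1 or 2 did not give.

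Kcnn2, which encodes SK2, the channel that follows the efferent nicotinic receptor of HCs, stood at 0.904, 0.978 and 0.779 CPM in the controls and at 0.503, 0.464 and 0.386 CPM in IDPN-4wk. These were 11 to 14 counts against 6 to 9, apart but not called (log2-Fold change -0.96, SE 0.45, edgeR Padj 0.162). Kcnn1, Kcnn3, Kcnn4 and Kcnt1 had log2-Fold changes between -0.30 and 0.12 and none was called. The sodium-activated channel gene Kcnt2 was under the filter, with 7, 5 and 10 counts in the controls and 0, 1 and 0 in IDPN-4wk. It was called downregulated where no filter was used (Padj 0.0258) and by DESeq2 (Padj 0.0353).

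Silent Kv subunits do not conduct alone and modify Kv2 channels. Kcnf1 (ENSRNOG00000024310), which encodes Kv5.1, stood at 1.03, 1.47 and 0.991 CPM in the controls and at 0.216, 0.309 and 0.193 CPM in IDPN-4wk, from 16, 21 and 14 against 3, 6 and 3 counts. Its log2-Fold change was -2.22 (SE 0.50, edgeR Padj 0.0109), and the call was lost without control replicate 2 (Padj 0.0548). Kcnv1, which encodes Kv8.1, stood at 0.969, 1.47 and 2.55 CPM in the controls and at 0.288, 0.516 and 0.966 CPM in IDPN-4wk. The highest treated library nearly touched the lowest control, and the gene was not called with all libraries (log2-Fold change -1.47, SE 0.53, edgeR Padj 0.0772) but was without IDPN-4wk replicate 3. Kcns1, which encodes Kv9.1, stood at 7.49, 7.76 and 8.00 CPM in the controls and at 2.37, 7.07 and 4.18 CPM in IDPN-4wk. It was not called (log2-Fold change -0.75, SE 0.32, edgeR Padj 0.129), with treated replicate 2 near the controls, and it passed both thresholds without that library. Kcng1 and Kcns3, which encode Kv6.1 and Kv9.3, had overlapping groups and log2-Fold changes of -0.10 and 0.18.

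The Kv3 channels repolarize fast-firing cells. Kcnc1, which encodes Kv3.1, gave 0.14 on the log2 scale (SE 0.45, edgeR Padj 0.865) and Kcnc4, which encodes Kv3.4, gave -0.85 (SE 0.46, edgeR Padj 0.231), both with overlapping groups. These genes had 7 to 48 counts in a library, and no change was detectable at this depth.

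Of the 15 accessory subunits 10 were tested, and 3 were downregulated, Kcnab1, Kcnip4 and Kcne2. Kcne2 (ENSRNOG00000029811), which encodes a single-span beta subunit that joins several Kv pores, stood at 5.49, 6.50 and 7.93 CPM in the controls and at 2.16, 3.61 and 3.61 CPM in IDPN-4wk. Its log2-Fold change was -1.07 (SE 0.27, edgeR Padj 0.0178), and the call was lost without control replicate 3 or IDPN-4wk replicate 1 (Padj up to 0.0746). The paralogs of Kcnab1 differed in size of change from it, with log2-Fold changes of -0.44 for Kcnab2 (SE 0.21, edgeR Padj 0.165) and -0.28 for Kcnab3 (SE 0.41, edgeR Padj 0.671). That difference between paralogs was not tested. Kcne3, a relative of Kcne2, overlapped between groups at 0.15 (log2). The summed level of the class was 126 ± 12.0 CPM in controls and 50.3 ± 6.86 CPM in IDPN-4wk (SD, n = 3), a reduction to 39.9% that lay mostly in Kcnab1, the gene with the most counts of the class.

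**Figure D4:**
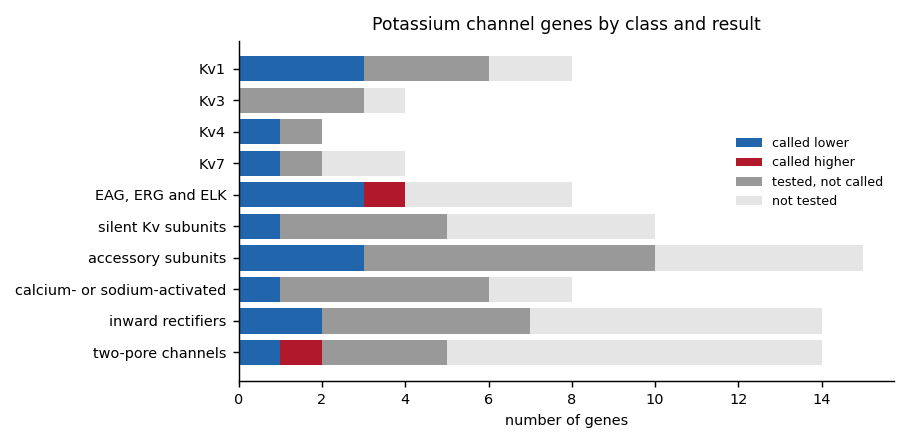
Number of potassium channel genes (x axis) in 10 classes (y axis), split into called lower, called higher, tested but not called, and not tested. Untested genes are most numerous among two-pore channels (9 of 14) and inward rectifiers (7 of 14), and the EAG, ERG and ELK class has all 4 tested genes called.

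The level left was not the same in all treated animals. Among the 16 downregulated channel genes, IDPN-4wk replicate 3 was the highest treated library for 10 and the lowest for 1, and the median level left was 25.2%, 30.7% and 45.6% of the control mean in replicates 1, 2 and 3. The 16 HC markers gave the same replicate as the highest for 14, with medians of 60.8%, 59.5% and 73.7%. The 16 channel genes were picked because they were called lower in these libraries, while the HC markers were taken whatever their result. The size of the medians is therefore not comparable between these sets. Kcnab1, Kcna10 and Kcnk2 were highest in replicate 3 among the treated libraries, while Kcnf1 was lowest there. Kcnab1, Kcnma1, Kcnk2 and Kcnq5, 4 of the 51 tested channel genes, had log2-Fold changes below that of every HC marker. The HC markers ranged from -2.56 to 0.02 with a median of -0.55, beside a median of -0.50 over all 51 channel genes. Of the 11 supporting cell markers 4 were downregulated, Otog, Otogl, Tectb and Gjb6 (list sum 11452 to 12404 CPM in controls, 6337 to 7881 in IDPN-4wk). Otog alone had means of 6262 CPM in controls and 3199 CPM in IDPN-4wk. Of the 11, 9 had a negative log2-Fold change, while Sox9 (0.24) and Hes1 (0.36) had positive ones and were not called. None of 6 melanocyte markers was called (589 to 727 CPM against 507 to 556), and 1 of 7 endothelial markers was downregulated (469 to 635 CPM against 443 to 506). The part of these cell types in the channel values was not tested.

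**Figure D5:**
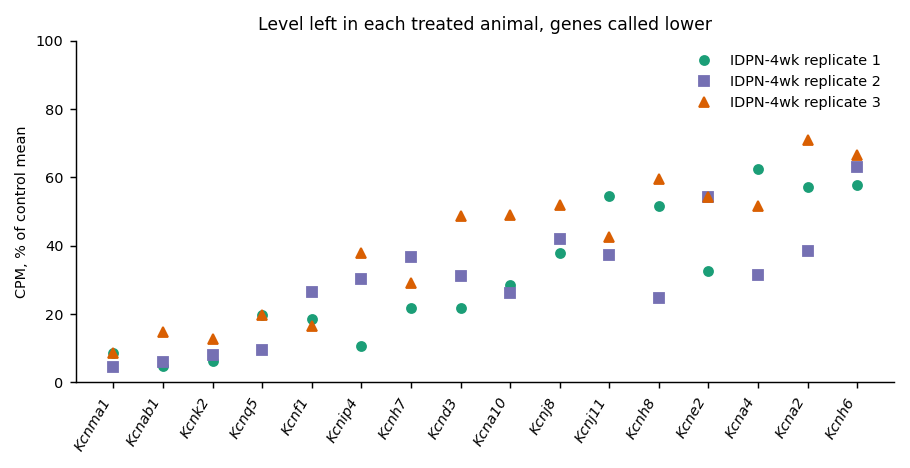
CPM left in each treated library as a percent of the control mean (y axis, linear from 0) for the 16 downregulated potassium channel genes, in order of their mean. Replicate 3 (triangles) is the highest of the treated libraries for 10 genes, and the 4 leftmost genes stay under 20% in all of them.

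Pumps and cotransporters that load cells and endolymph with K+ were measured as a separate list of 18 genes, of which 12 were tested, 6 fell and none rose, beside 6.62% and 3.09% of all genes. The median of this list was -0.55 (log2). Slc12a2, which encodes the Na-K-2Cl cotransporter NKCC1, changed by -1.06 on the log2 scale (SE 0.14, edgeR Padj 0.000411), a call that held in every alternative fit. Atp1b3 and Atp1b2, which encode beta subunits of the Na,K-ATPase, changed by -0.68 and -0.60 on the log2 scale. Scaling by library size alone took both under the fold threshold, as did upper quartile scaling and leaving out control replicate 2 or IDPN-4wk replicate 1 or 3 for Atp1b2. Slc12a5, which encodes the neuronal cotransporter KCC2, changed by -1.38 on the log2 scale (SE 0.42, edgeR Padj 0.0422) and lost the call in all fits without a library other than IDPN-4wk replicate 3 (Padj up to 0.122).

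Of the 37 genes not tested, 9 had no count in any library, 16 had at most 3 counts in every library, and the highest count was 21, for Kcne5 in IDPN-4wk replicate 2. The 9 were Kcnu1, Kcnh1, Kcnh5, Kcnj1, Kcnj3, Kcns2, Kcnk16, Kcnk3 and Kcnk9. For these a count of 0 allows a level of up to 0.155 to 0.216 CPM per library, counting error only.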

How the data were processed

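The authors prepared 1 SMART-seq2 library per animal from 6 to 11 ng of total RNA, with 8 and 12 cycles of PCR and without molecular identifiers or strand, in 1 batch per the labels. They mapped reads to the rat genome (Rnor6.0) with STAR 2.5.3a and quantified genes with RSEM, version 1.3.0 per the submitters' processing notes. The deposited values are expected counts per gene, which were whole numbers in every cell. RSEM shares multi-mapping reads among paralogs, so channel paralogs may exchange reads.

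Counts were tested with edgeR 4.0.16 in R 4.3.3: filterByExpr (minimum count 10, total 15), TMM scaling, quasi-likelihood test, control against IDPN-4wk, Benjamini-Hochberg over 14352 genes. A call needed Padj under 0.05 and a fold change over 1.5, the thresholds of the study. CPM were computed on TMM-scaled library sizes, with factors of 0.955 to 0.968 in controls and 1.03 to 1.05 in IDPN-4wk. The standard error was taken from the fold change and the F statistic. Alternatives were DESeq2 1.42.0, other scalings and filters, glmTreat, Padj alone, and each library left out.

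Treatment labels gave the groups. Replicates were numbered by accession order and not paired. Codes in the titles share a prefix within IDPN-4wk and within 2 controls, whose meaning is not given, so any litter or cage cannot be told apart from treatment. P-values measure the spread between these animals. The script was tested on simulated data. Genes named were those called, channels with a known place in HCs or afferents, and the 5 uncalled ones with the smallest p. The other tested genes were named for completeness, outside this rule, after their values were seen. Some genes that this rule names are not reported here, though they stay in the counts. The channel genes and all lists were chosen with earlier results of these data known. All 88 symbols matched the RefSeq gene table (GRCr8). Kcnb2 and Kcnd2 were not analysed here.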

Additional observations from a re-analysis of the deposited data

How the results depend on the processing

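Of the 18 called channel genes, 9 kept their call in every alternative that gave a value, 11 when glmTreat is left aside, and 12 in all fits without a library. Testing against the 1.5-fold threshold itself (glmTreat) called 8 channel genes lower and 1 higher, and 354 and 99 of all genes, against 16, 2, 950 and 444. The calls lost there were those of Kcna2, Kcna4, Kcnd3, Kcne2, Kcnf1, Kcnh6, Kcnh8 and Kcnip4, and of the upregulated Kcnh2. Padj alone called 1646 genes lower and 1132 higher. Scaling by library size alone called 762 genes higher and 780 lower, which moved the median log2-Fold change of all genes by 0.11, to 0.13, while 15 channel genes were lower and 2 higher. Without a library, 11 to 17 channel genes were lower and 2 higher. The median of the channel genes, -0.50, became -0.36 with DESeq2, -0.33 without a filter and -0.38 with a filter on the mean count, each over a different set of genes, and lay between -0.65 and -0.41 without a library. Leaving out IDPN-4wk replicate 3 turned the direction of the uncalled Kcnj2, to 0.056. The other fits without a library that gave a value for it lay between -0.59 and -0.017. The cause was not tested. Depth limits the genes with few counts, Kcnf1, Kcnip4, Kcnj2, Kcnt2 and the 37 untested ones, and 3 animals a group limit all of them.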
